A study of Mus musculus with 16 samples.

Results

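The MYC network genes described here are Myc, Max, Mxd1, Mxi1, Mxd4, Mnt, Mga and Mlx. These 8 genes were taken by name from the 9614 genes of the expression table, and all 8 were found. They were measured by RNA-seq in bone-marrow-derived macrophages (BMDM), cells grown from the marrow of male C57BL/6 mice that were 8 weeks old according to the sample labels. WT mice were LysM-Cre:NELF-B wt/wt and NELF-B KO mice were LysM-Cre:NELF-B fl/fl, so both genotypes carried the Cre recombinase, which is driven by the lysozyme M promoter in myeloid cells, and in the KO the Cre removes a floxed exon of Nelfb. NELF-B is a subunit of NELF, a complex that holds RNA polymerase II in a paused state close to promoters. The BMDM were left untreated (2 libraries per genotype), or received for 1 hr either LPS at 10 ng/ml (3 per genotype), a product of the outer membrane of bacteria, or the same LPS together with 100 nM dexamethasone (Dex), a synthetic ligand of the glucocorticoid receptor (GR) (3 per genotype). The 3 mice of each genotype are called A, B and C, each gave an LPS and an LPS + Dex library, and mice A and B also gave the untreated libraries. The labels of the B mice share a tag that looks like a date. All libraries of KO mouse B carry this tag, but only the untreated library of WT mouse B. The labels of both C mice have a sample number of the same form but no date. The letter A holds the remaining mice, of which only the KO mouse has date-like tags, unlike that of B. The labels therefore tie the WT and KO mouse of a letter together for B alone.

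MYC is a transcription factor that binds the E-box sequence CACGTG as a dimer with MAX and activates genes of growth, ribosome production and metabolism. MAX also pairs with MXD1, MXI1, MXD4, MNT and MGA, which occupy the same E-boxes and repress, the MXD proteins and MNT through the SIN3 corepressor and its histone deacetylases, and MGA as part of a Polycomb-type complex. MLX is the partner of the glucose-sensing factors MondoA (encoded by Mlxip) and ChREBP, and it can also pair with some of the MXD proteins and MNT. In macrophages Myc is known as an early response gene of activation, and its mRNA and protein are short-lived.

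Mlx and Mnt share chromosome 11, and each of the others is on a chromosome of its own. In the GENCODE vM21 annotation of GRCm38, all are protein-coding. Myc is at chr15:61985391-61990374 on the plus strand and Max at chr12:76937269-76962201 on the minus strand. Mxd1 is at chr6:86647042-86669161 (minus), Mxi1 at chr19:53310518-53375810 (plus) and Mxd4 at chr5:34173883-34187720 (minus). Mnt is at chr11:74830920-74845725 (plus), Mlx at chr11:101087277-101092207 (plus) and Mga at chr2:119897228-119969581 (plus).

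RefSeq promoter sequences (build GRCm38.p6) were matched for 7 of the 8 genes, in 9 promoter windows because Mxi1 has several starts. No sequence was at hand for Myc, so its promoter was not searched. The E-box CACGTG, the letters that MYC-MAX and MXD-MAX dimers read, is the same on both strands and was searched from 250 bases before to 50 bases after each start. It was present for Mxd4, Mnt, Mlx and Max, beginning at -219, -123, -40 and -3 relative to the annotated start. Of all 32851 promoter windows of this length, 7.15% held it, and of the 9476 windows belonging to genes of the table, 10.6%. The sequences shown are those of Mxd1 and Mnt, which fell together with Dex, and of Mxd4, an MXD gene that did not pass the test with LPS or Dex. They run from 250 bases before the start to 30 bases after it, at chr6:86669130-86669409 (minus strand, Mxd1), chr11:74830674-74830953 (plus strand, Mnt) and chr5:34187681-34187960 (minus strand, Mxd4). Capitals mark the E-box, which the Mxd1 window lacks.
Mxd1: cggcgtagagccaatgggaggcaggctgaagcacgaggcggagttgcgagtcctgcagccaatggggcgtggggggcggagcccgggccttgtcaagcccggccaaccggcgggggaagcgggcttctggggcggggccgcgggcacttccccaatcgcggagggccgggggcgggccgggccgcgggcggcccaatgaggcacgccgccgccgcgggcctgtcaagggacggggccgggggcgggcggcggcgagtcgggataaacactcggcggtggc
Mnt: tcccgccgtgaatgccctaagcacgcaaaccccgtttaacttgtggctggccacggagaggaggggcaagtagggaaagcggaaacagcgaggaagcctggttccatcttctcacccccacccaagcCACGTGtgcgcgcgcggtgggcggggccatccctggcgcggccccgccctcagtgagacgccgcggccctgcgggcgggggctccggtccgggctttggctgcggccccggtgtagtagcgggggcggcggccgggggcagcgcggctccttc
Mxd4: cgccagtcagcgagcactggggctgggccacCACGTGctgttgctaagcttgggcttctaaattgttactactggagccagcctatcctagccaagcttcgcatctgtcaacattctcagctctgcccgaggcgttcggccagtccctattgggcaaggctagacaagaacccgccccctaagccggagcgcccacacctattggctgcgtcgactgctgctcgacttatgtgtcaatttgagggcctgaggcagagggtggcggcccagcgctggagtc
Over the whole windows of 300 bases, which run beyond the bases shown, G and C made up 76.7% for Mxd1, 70.7% for Mnt and 61% for Mxd4. The median over all windows was 52.7%. Other motifs searched on both strands, in the same windows, were an NF-kB site, the GR half-site AGAACA, the AP-1 site TGANTCA and the CRE TGACGTCA. None of these motifs was found in the 9 windows, which do not include Myc. They occurred in 1.63%, 19%, 7.81% and 1.79% of all windows. Of the windows belonging to genes of the table, 1.78%, 11.9%, 5.05% and 3.18% held them.

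The libraries held 25030934 to 49730083 reads on the 9614 genes, and values are log2 CPM, where CPM is the number of reads of a gene scaled to the size of its library. Nelfb was 5.59 to 6.21 log2 CPM in the 8 WT libraries and 3.27 to 4.38 in the 8 KO libraries, without overlap. The untreated library of WT mouse A was unlike the rest, correlating across genes at r = 0.83 to 0.909 with them, while r was 0.924 to 0.993 between any pair of the others. All 10 macrophage markers were in the table, among them Csf1r and the F4/80 gene (as Emr1). Summed over these markers, the level was 8500 (mouse A) and 12740 CPM in untreated WT, 12220 to 13300 CPM in untreated KO, 11370 to 14300 CPM in LPS-treated WT and 14100 to 14350 CPM in LPS-treated KO libraries. Of markers of other cells, 1 of 10 neutrophil genes, 1 of 6 dendritic cell genes, 2 of 9 lymphocyte genes, 4 of 6 stromal genes and 0 of 5 mast cell genes were in the table. The 4 stromal genes summed to 49.2 to 89.7 CPM in untreated, 64.4 to 125 CPM in LPS and 94.4 to 145 CPM in LPS + Dex libraries. They moved with treatment, and their part in the results was not tested.

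Within a library, levels of different genes can be compared only per length, here as CPM per kb of annotated exon. The length joins the exons of all annotated transcripts of a gene, and the order of genes depends on this choice. Before division by length, Mnt (6.39) and Mxd4 (6.29) had a higher mean log2 CPM than Max (6.23) in untreated WT BMDM. In untreated WT BMDM Max was the highest of the 8 genes at 21.0 ± 2.5 CPM per kb (SD, n = 2). Mnt followed at 18.4 ± 4.5 and Mlx at 14.2 ± 3.2, and the spreads of these neighbours overlapped. Mxd4 stood at 9.24 ± 0.40, Myc at 8.54 ± 5.2 and Mxi1 at 5.58 ± 0.64 CPM per kb, with Myc spread over the range of both. Mga was at 3.10 ± 2.1 and Mxd1 was lowest at 2.21 ± 0.26 CPM per kb. Untreated KO BMDM had the same genes at the top (Max 21.7 ± 2.0) and bottom (Mxd1 2.34 ± 0.089), with Myc at 7.24 ± 3.2 CPM per kb.

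With LPS, Myc became the highest of the 8 genes, at 48.0 ± 12 CPM per kb in WT and 45.02 ± 7.3 in KO (SD, n = 3). Mxd1 went from last place to the fifth, at 8.13 ± 3.1 CPM per kb in WT and 11.98 ± 2.9 in KO. With LPS + Dex, Myc was still first at 34.5 ± 6.3 CPM per kb in WT and 31.1 ± 2.7 in KO, and Mxd1 was at 4.16 ± 0.73 and 6.19 ± 1.7. Max, the shared partner, was between 19.1 and 21.7 CPM per kb in the mean of every group.

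The amount of Myc mRNA was also set against the sum of Mxd1, Mxi1, Mxd4 and Mnt per length, the 4 repressors that act through SIN3. In the untreated libraries the ratio of Myc to these repressors was 0.148 (A) and 0.321 (B) for the WT mice and 0.127 (A) and 0.26 (B) for the KO mice. With LPS it was 0.942 (A), 1.32 (B) and 1.53 (C) in WT, and 0.903 (A), 1.18 (B) and 0.9 (C) in KO. The untreated and LPS libraries did not overlap in this ratio in either genotype. With LPS + Dex the ratio was 0.867, 1.28 and 1.37 in WT and 0.857, 0.955 and 0.858 in KO, in the same order of mice, and was lower than with LPS in each mouse. The repressor sum itself was 35.4 ± 3.7 CPM per kb in untreated, 38.1 ± 5.8 in LPS and 29.7 ± 3.0 in LPS + Dex WT BMDM. In KO it was 37.9 ± 2.0, 45.3 ± 1.2 and 34.9 ± 0.93 CPM per kb, and the 3 KO libraries with LPS (44.1 to 46.4) lay above both untreated ones (36.5 and 39.3), whereas in WT they overlapped. Within that sum the share of Mxd1 was 6.24% ± 0.096 untreated, 20.9% ± 4.6 with LPS and 13.9% ± 1.5 with LPS + Dex in WT, and 6.17% ± 0.086, 26.5% ± 6.3 and 17.7% ± 4.4 in KO.

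**Figure D1:**
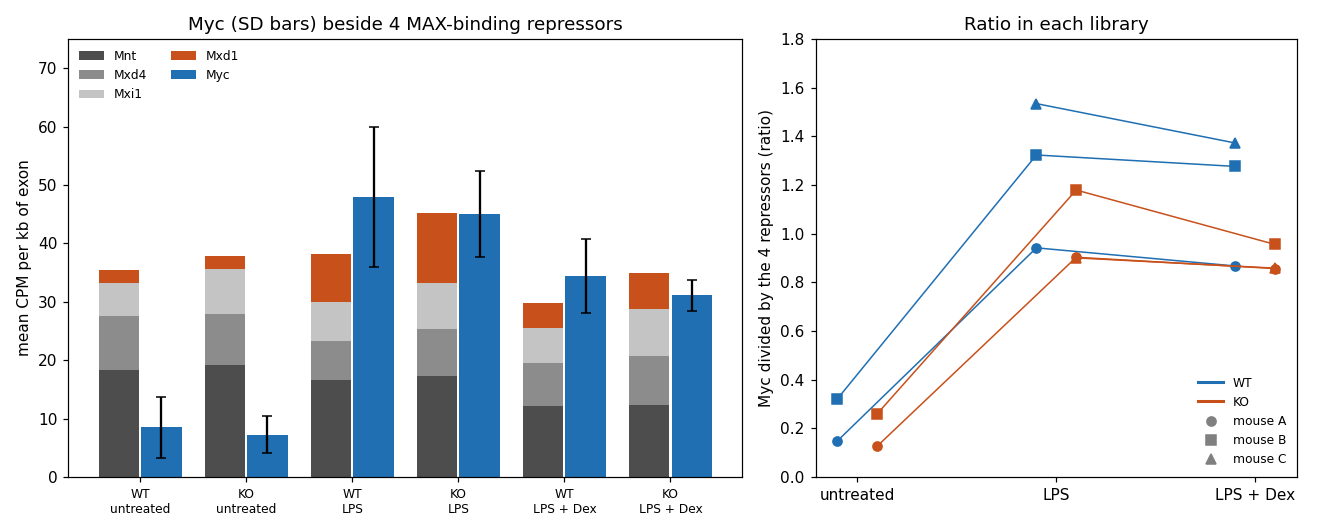
Left, mean CPM per kb of exon in each of the 6 groups, with Myc (blue, bars of 1 SD) beside the stacked means of Mnt, Mxd4, Mxi1 and Mxd1. Right, the ratio of Myc to the sum of these 4 genes in each of the 16 libraries, lines joining libraries of the same mouse. The ratio was 0.127 to 0.321 in untreated libraries and 0.857 to 1.53 in the others, and Mxd1 makes up a visibly larger part of the stack with LPS.

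The first comparison asked which network genes respond to LPS. Myc and Mxd1 rose in both genotypes, Mxd1 from the lowest level of the network, while Max and the other repressors did not pass the test. Untreated BMDM had Myc at 3.73 (A) and 5.05 (B) log2 CPM in WT, and at 3.76 (A) and 4.69 (B) in KO. With LPS it was at 6.57 (A), 7.32 (B) and 7.10 (C) in WT, and at 6.76 (A), 7.18 (B) and 6.83 (C) in KO. All LPS libraries were above all untreated ones, and mouse B had the highest Myc level of its genotype in each treatment. In limma, Myc was 6.08-fold higher with LPS in WT (log2 fold change 2.61, standard error 0.41, adjusted p = 0.0073) and 6.49-fold higher in KO (log2 fold change 2.70, standard error 0.41, adjusted p = 0.0065). These p-values rest on the spread between libraries within groups, and the fit leaves out that mice A and B gave both an untreated and an LPS library. With the mouse as a block, the limma adjusted p-values of Myc were 0.021 in WT and 0.015 in KO. Since BMDM were measured in bulk, fewer cells that express a gene and less of its RNA per cell cannot be told apart.

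Mxd1 encodes a MAX partner that is typical of cells that stop dividing and differentiate. It was at 3.84 and 4.08 log2 CPM in the untreated WT libraries and at 4.09 and 4.01 in the untreated KO libraries. With LPS it was at 5.58 (A), 6.36 (B) and 5.41 (C) log2 CPM in WT, and at 6.15 (A), 6.75 (B) and 6.24 (C) in KO. Within mice, Myc rose more than Mxd1 in both mice A, and Mxd1 more than Myc in both mice B (2.28 against 2.26 in WT and 2.75 against 2.49 in KO, as log2 changes). For Mxd1 the untreated libraries lay within 0.25 of each other and below all LPS libraries, and the LPS library of mouse B was the highest in both genotypes. The fitted log2 fold change was 1.82 in WT (standard error 0.29, limma adjusted p = 0.0073) and 2.33 in KO (standard error 0.29, limma adjusted p = 0.0017).

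At an adjusted p under 0.1 in limma, 2 of the 8 genes were called in WT, against 4.55% of the 9614 genes tested (3.4% higher and 1.14% lower). In KO the same 2 genes were called, against 3.54% of all genes (2.83% higher and 0.707% lower). The groups did not overlap for 4 members in WT, against 25.5% of all genes, and for 2 in KO, against 25.8%. The log2 change of Myc in WT was 1.94 without the untreated library of mouse A and 3.27 without that of mouse B. Myc remained called in all but a single case of leaving out 1 library. Without the untreated library of KO mouse A its adjusted p in KO was 0.1003, which left 1 gene called. When all 16 libraries were fitted together with the mouse as a block, 6 members were called in WT, with Max, Mxd4, Mxi1 and Mga added at limma adjusted p-values of 0.099, 0.036, 0.095 and 0.089.

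The 6 genes that were not called in WT had fitted changes between -0.47 (Mxd4) and 0.66 (Mga) on the log2 scale. The 95% interval for Max was -0.45 to 0.19 in WT and -0.37 to 0.26 in KO, so a 1.5-fold change of Max lay outside both. Mxd4 was at 6.34 and 6.25 log2 CPM in untreated WT libraries and at 5.90, 5.98 and 5.58 with LPS (limma adjusted p = 0.255). The groups did not overlap in WT, and in KO they overlapped through the LPS library of mouse C (6.29), which has no untreated library beside it. In the 4 mice that gave both libraries, KO included, the change of Mxd4 was below 0 in 4 of 4, from -0.435 to -0.237 log2 units. Mxi1, whose protein acts as an MXD repressor, had a log2 change of 0.23 in WT and 0.07 in KO (limma adjusted p = 0.594 and 1). Mnt, the most broadly expressed of the repressors, had log2 changes of -0.14 in both genotypes (limma adjusted p = 0.663 in WT and 1 in KO).

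The fitted value of Mga, which encodes the largest protein of the network, rested on a single library. Mga was at 4.64 log2 CPM in the untreated library of WT mouse A and at 6.13 in that of mouse B, and at 5.88 to 6.13 in the LPS libraries of WT. Its log2 change in WT was 0.66 (limma adjusted p = 0.329), and it was -0.08 without the untreated library of mouse A and 1.41 without that of mouse B. With the latter left out, 5 members were called in WT, namely Myc, Mxd1, Mga, Mlx and Mxd4, so that count rests on the library that stood apart.

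Whether the LPS response depended on genotype was tested as an interaction in the same limma fit. None of the 8 genes was called, nor was any of the 9614 genes (0%), and 44 of those (0.458%), with 0 members among them, had an unadjusted p under 0.05. The difference in response, KO minus WT, was 0.09 for Myc (95% interval -1.23 to 1.42) and 0.51 for Mxd1 (-0.41 to 1.44). The intervals span more than a 2-fold change in either direction for Myc.

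The second comparison asked how Dex changes these genes when it is given together with LPS. Myc, Mxd1 and Mnt fell in both genotypes and Mga rose in KO, while Max, Mxi1, Mxd4 and Mlx did not pass the test. Each mouse gave both libraries, so changes were fitted within mice. The LPS + Dex libraries had Myc at 6.22 (A), 6.76 (B) and 6.62 (C) log2 CPM in WT, which is 0.35, 0.56 and 0.48 below the LPS library of the same mouse. The KO mice had Myc at 6.30 (A), 6.54 (B) and 6.35 (C) log2 CPM, lower than with LPS by 0.46, 0.65 and 0.48 log2 units. Myc was thus lower with Dex in 6 of 6 mice, although in WT the groups overlapped because mice differed in level. The fitted log2 change was -0.46 in WT (standard error 0.047, limma adjusted p = 1.8e-05) and -0.53 in KO (standard error 0.047, limma adjusted p = 4.9e-06), or 1.38-fold and 1.44-fold lower.

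With LPS + Dex, Mxd1 was at 4.88 (A), 5.11 (B) and 4.596 (C) log2 CPM in WT, and at 5.18 (A), 5.84 (B) and 5.24 (C) in KO. The LPS and LPS + Dex groups did not overlap within either genotype. Within mice the change ran from -1.25 in WT mouse B to -0.69 in WT mouse A. Its fitted log2 change was -0.92 in WT (standard error 0.079, limma adjusted p = 3.8e-06) and -0.96 in KO (standard error 0.079, limma adjusted p = 2.2e-06), or 1.89-fold and 1.94-fold lower. The log2 change of Mxd1 was below that of Myc in 6 of 6 mice, by 0.27 to 0.7 log2 units, which is given here without a test. Compared with the untreated library of the same mouse, Mxd1 with LPS + Dex was still higher by 1.03 to 1.84 log2 units in the 4 mice that had one, and Myc by 1.70 to 2.54.

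Mnt did not pass the test with LPS, yet fell with Dex. With LPS it was at 6.12 (A), 6.52 (B) and 6.11 (C) log2 CPM in WT, and with LPS + Dex at 5.84, 5.93 and 5.70. In KO the corresponding values were 6.28, 6.31 and 6.38 with LPS and 5.82, 5.87 and 5.84 with LPS + Dex. The groups did not overlap in either genotype, and the 6 LPS + Dex libraries were all below the 4 untreated libraries (6.14 to 6.64 log2 CPM) as well. The fitted log2 change was -0.43 in WT (standard error 0.052, limma adjusted p = 7.3e-05) and -0.48 in KO (standard error 0.052, limma adjusted p = 2.4e-05).

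Mga moved the other way by a small amount. It was higher with LPS + Dex than with LPS in 6 of 6 mice, by 0.085 (A), 0.086 (B) and 0.12 (C) log2 units in WT, and by 0.15 (A), 0.34 (B) and 0.26 (C) in KO. Only the KO change was called (log2 change 0.25, standard error 0.041, limma adjusted p = 0.00097), while the WT change of 0.10 had an adjusted p of 0.22. The difference between genotypes was 0.15 log2 units (95% interval 0.03 to 0.28) with an unadjusted p of 0.022 and an adjusted p of 0.662, so the responses were not shown to differ. At an unadjusted p under 0.05 Mga was the single member, against 6.96% of all genes.

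In all, 3 of 8 genes were called in WT, against 12.5% of the 9614 genes (7.01% lower and 5.53% higher). In KO 4 of 8 were called, against 17.7% (8.97% lower and 8.72% higher). The groups did not overlap for 2 members in WT, against 5.97% of all genes, and for 3 in KO, against 9.67%. For Max the log2 change was -0.01 in WT (95% interval -0.08 to 0.07) and -0.09 in KO (-0.17 to -0.02, limma adjusted p = 0.114). The log2 changes of Mxd4, Mxi1 and Mlx lay between -0.11 and 0.10 in both genotypes. No member passed the test of a genotype difference in the Dex response, against 0.0208% of all genes. That difference, KO minus WT, was -0.06 log2 units for Myc (95% interval -0.21 to 0.08) and -0.04 for Mxd1 (-0.28 to 0.20). The Dex calls depend on comparing libraries within mice, and those of Myc and of Mga in KO also on which libraries were fitted. With the mouse kept and the untreated libraries added to the fit, Myc had limma adjusted p-values of 0.387 in WT and 0.224 in KO. Mga was not called in KO in that fit either. Without the mouse in the fit, 0 members were called in WT and 1, Mnt, in KO, with limma adjusted p-values of 0.896 and 0.561 for Myc and 0.271 and 0.199 for Mxd1.

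**Figure D2:**
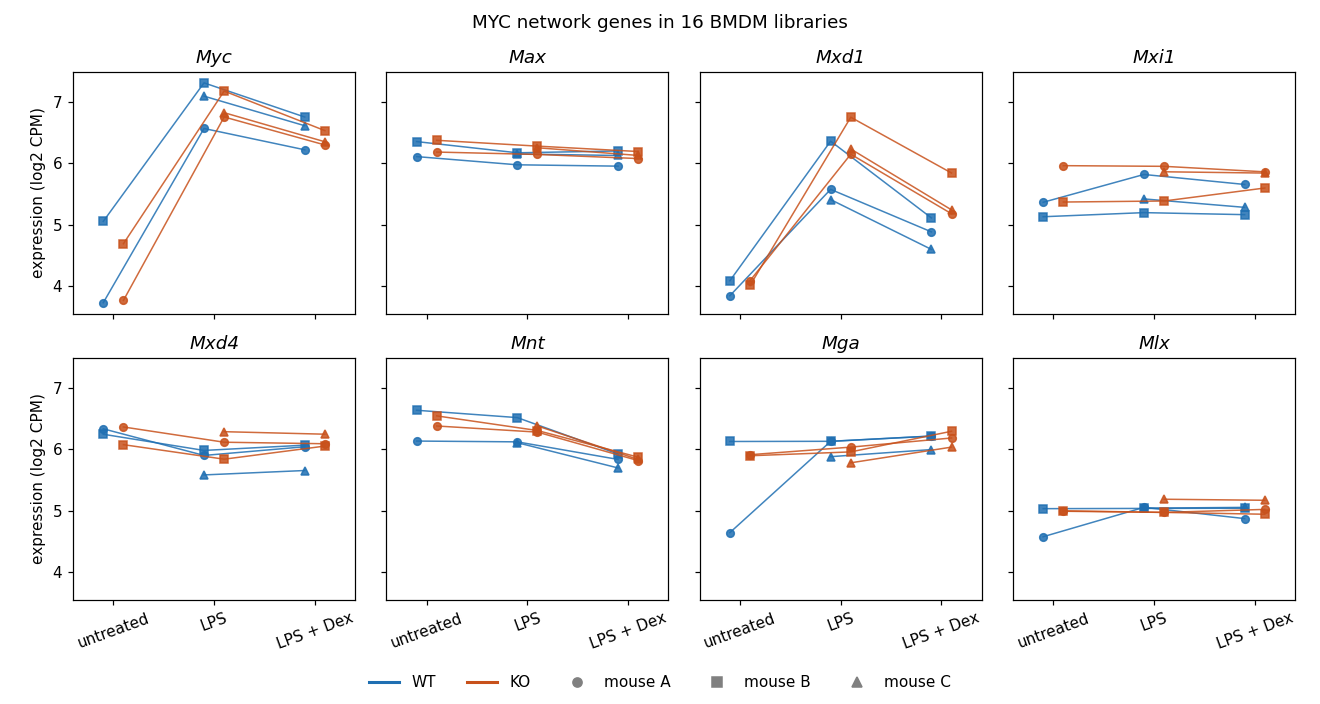
Expression in log2 CPM (y axis) of each of the 8 genes in the 16 libraries, by treatment (x axis), with WT in blue and KO in orange. Symbols mark the mouse and lines join libraries of the same mouse. Myc and Mxd1 rise with LPS and are lower again with LPS + Dex, Mnt is lower in LPS + Dex libraries, Max is nearly level, and the untreated Mga value of WT mouse A (4.64) lies apart.

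**Figure D3:**
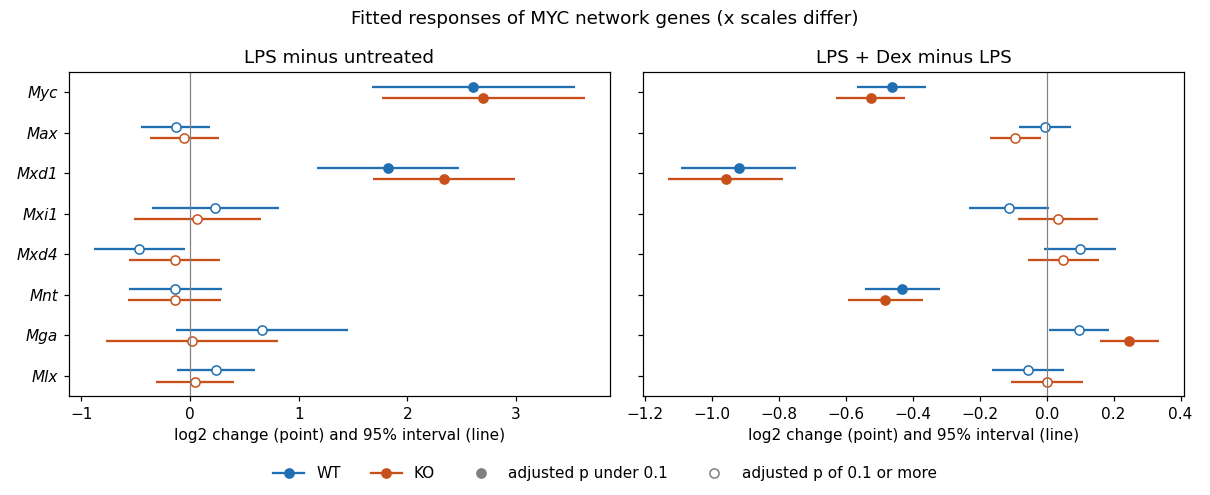
Fitted log2 change (points) and 95% interval (lines) of the 8 genes for LPS minus untreated (left) and LPS + Dex minus LPS within mice (right), WT in blue and KO in orange, with filled points where the limma adjusted p was under 0.1. The 2 filled genes on the left are Myc and Mxd1, and on the right Myc, Mxd1 and Mnt lie below 0 in both genotypes and Mga above 0 in KO.

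The third comparison set KO against WT within each treatment. None of the 8 genes was called by limma at an adjusted p under 0.05 in untreated, LPS or LPS + Dex BMDM, and neither was any other gene (0% of 9614 in each). At an unadjusted p under 0.05 there were 37, 811 and 1090 genes (0.385%, 8.44% and 11.3%), including 0, 0 and 2 of the 8, the latter Mxd1 and Mxi1. Nelfb itself had log2 differences of -2.11, -2.02 and -2.003 with adjusted p-values of 0.889, 0.105 and 0.0889. With mice of the same letter treated as a block, its adjusted p-values were 0.0032, 0.043 and 0.033, and still no network gene was called. A missed threshold in a design this small does not show that levels were alike.

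Mxd1 and Mxi1 were the members with an unadjusted p under 0.05 with LPS + Dex, and neither was called. The log2 difference of Mxd1 was 0.08 in untreated, 0.60 in LPS and 0.56 in LPS + Dex BMDM, with limma adjusted p-values of 0.939, 0.644 and 0.375. Between mice of the same letter with LPS, Mxd1 was higher in KO by 0.57 (A), 0.39 (B) and 0.83 (C) log2 units. With LPS + Dex it was higher in KO by 0.30 (A), 0.73 (B) and 0.65 (C), and in untreated BMDM it differed by 0.25 (A) and -0.077 (B). KO and WT overlapped with LPS, where WT mouse B (6.36) exceeded KO mice A and C, and they did not overlap with LPS + Dex, which held for 17.8% of all genes. With the letter as a block the adjusted p-values of Mxd1 were 0.0905 with LPS and 0.0699 with LPS + Dex, both above 0.05.

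Mxi1 was higher in KO than in the WT mouse of the same letter in 8 of 8 library pairs, by 0.13 to 0.60 log2 units. These come from only 3 pairs of mice, and the labels tie only the B mice together. Across letters the order could turn, since with LPS WT mouse A (5.82 log2 CPM) was above KO mouse B (5.39). For Mxi1 these pairs are given without a test, and the share of all genes with the same direction in every pair was not counted. The fitted log2 differences of Mxi1 were 0.42, 0.26 and 0.40 in untreated, LPS and LPS + Dex BMDM, with limma adjusted p-values of 0.889, 0.883 and 0.366. The KO and WT groups did not overlap for Mxi1 in untreated BMDM, which was also so for 29.4% of all genes. Myc differed between genotypes by -0.16, -0.07 and -0.14 log2 units (limma adjusted p-values 0.942, 0.987 and 0.808). The 95% interval for Myc was -0.56 to 0.41 with LPS and -0.49 to 0.22 with LPS + Dex, so a 2-fold genotype difference lay outside it in both treatments. For Max the intervals were -0.10 to 0.35 with LPS and -0.18 to 0.26 with LPS + Dex. With LPS, where 13.7% of all genes did not overlap between genotypes, 0 of the 8 genes did so.

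**Figure D4:**
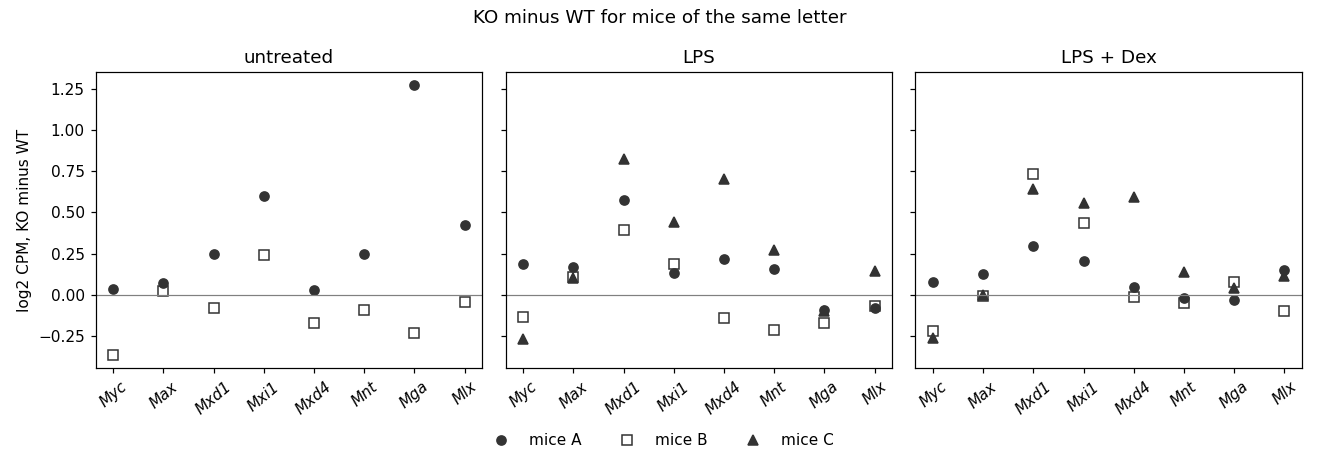
Difference in log2 CPM (y axis), KO minus WT, between mice of the same letter for the 8 genes (x axis) in untreated, LPS and LPS + Dex BMDM (panels), each symbol a pair of libraries. Mxi1 is above 0 in all 8 pairs and Mxd1 in 7 of 8, and the untreated Mga difference of letter A (1.27) is the largest. The labels tie only the B mice together.

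Of the other network genes, Mycn, Mycl, Mxd3 and Mlxipl were not among the genes of the table. Mlxip, which encodes the MLX partner MondoA, was present. With LPS it was at 6.03 (A), 6.14 (B) and 5.87 (C) log2 CPM in WT, and at 6.07, 6.07 and 5.95 in KO. With LPS + Dex it was at 6.60, 6.77 and 6.44 log2 CPM in WT and 6.76, 6.85 and 6.74 in KO, higher in each of the 6 mice and without overlap. It rose by 0.59 (standard error 0.036, limma adjusted p = 2.0e-07) in WT and 0.76 (standard error 0.036, limma adjusted p = 2.0e-08) in KO on the log2 scale, while Mlx itself had log2 changes of -0.06 and 0.00067 (limma adjusted p = 0.68 and 0.996). The MLX-partner target genes in the table were Txnip, which restrains glucose uptake, and Arrdc4, and they moved in opposite directions. With LPS, Txnip had log2 changes of -1.30 in WT and -1.76 in KO and was not called, while Arrdc4 rose (0.94 and 1.14). With Dex, Txnip rose in both genotypes (log2 change 0.40 and 0.24) and Arrdc4 fell (-0.39 and -0.47). Mlxip, Txnip and Arrdc4 were picked out after their values were seen.

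Lists of genes that MYC and its partners work through were also read. Of all genes, 4.55% in WT and 3.54% in KO were called with LPS, and 12.5% and 17.7% with Dex. In lists of 9 to 11 genes, counts as small as those below cannot be set apart from these shares. None of the 11 coactivator genes and none of the 11 SIN3-HDAC genes was called with LPS in either genotype, with list medians between -0.04 and 0.12 log2 units against 0.016 (WT) and -0.005 (KO) over all genes. Single changes in WT ran from -0.50 to 0.61 among the coactivators and from -0.40 to 1.22 among the SIN3-HDAC genes on the log2 scale, so a missed call does not show that a gene was level. With Dex, 0 SIN3-HDAC genes were called and 1 coactivator gene, Trrap, rose in KO. Of the 9 genes of the MGA complex, Rnf2, a Polycomb ubiquitin ligase, rose with LPS in WT (log2 change 1.05, limma adjusted p = 0.0646) and fell with Dex in both genotypes (-0.21 and -0.18), as did Rybp in WT. Of 11 genes of MYC protein turnover, 0 were called with LPS. Skp2, an F-box protein that marks MYC and the cell cycle inhibitor p27 for degradation, rose with Dex by 0.76 in WT (standard error 0.11, limma adjusted p = 0.00031) and 0.80 in KO (standard error 0.11, limma adjusted p = 0.00018) on the log2 scale. Huwe1 and Fbxo28 also rose with Dex in KO. With the mouse kept and the untreated libraries added to the fit, Skp2 was not called (limma adjusted p = 0.215 in WT and 0.1585 in KO).

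Known targets of MYC were read at the same time points. Of 45 measured genes that MYC activates, 1 rose with LPS in each genotype and 0 fell (of all genes, 3.4% rose and 1.14% fell in WT, and 2.83% and 0.707% in KO), with medians of -0.09 in WT and -0.04 in KO, against 0.016 and -0.005 over all genes. That gene was Odc1, the first enzyme of polyamine synthesis, with log2 changes of 0.84 and 1.71. With Dex 5 of the 45 fell in WT (Odc1, Eif4e, Eif4a1, Rrs1 and Hk2) and 8 in KO, against 7.01% and 8.97% of all genes, and 0 rose, against 5.53% and 8.72%. The medians were -0.01 and -0.04 against -0.007 and -0.002 over all genes.

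Of 8 measured genes that MYC represses, 3 rose with LPS in each genotype, against 3.4% of all genes in WT and 2.83% in KO, namely the cell cycle inhibitor Cdkn1a (p21) and the stress response genes Gadd45a and Gadd45b. Gadd45a was at 3.04 to 3.84 log2 CPM in the 4 untreated, 5.25 to 6.64 in the 6 LPS and 3.21 to 4.86 in the 6 LPS + Dex libraries. The LPS libraries were above all others. Its log2 change with LPS was 2.27 in WT (standard error 0.37, limma adjusted p = 0.0081) and 2.45 in KO (standard error 0.37, limma adjusted p = 0.0055), while the corresponding Dex values were -1.73 and -1.66, each at a limma adjusted p of 2.2e-08. Gadd45b rose with LPS by 1.94 and 2.18 and Cdkn1a by 1.48 and 1.93 log2 units in WT and KO, and both fell with Dex (Gadd45b -0.55 and -0.67, Cdkn1a -0.20 and -0.27). Gadd45g fell with LPS in WT (log2 change -2.02, limma adjusted p = 0.0555) and had -1.18 in KO (limma adjusted p = 0.522), and with Dex it fell by 0.75 and 0.76. Its untreated WT levels were 5.51 (A) and 3.75 (B) log2 CPM. The WT call was lost with the mouse as a block (limma adjusted p = 0.258) and without the untreated library of WT mouse A (log2 change -1.13, limma adjusted p = 0.214), and the log2 change was -2.90 without that of mouse B. The Dex calls of Gadd45g were lost when the untreated libraries were added to the fit (limma adjusted p = 0.805 in WT and 0.676 in KO). They were also lost without the mouse in the fit (limma adjusted p = 0.469 and 0.379). Cdkn1b, which encodes p27, rose with Dex by 0.55 in WT and 0.70 in KO (limma adjusted p = 7.0e-06 and 6.8e-07). None of the genes of any of these lists was called for KO against WT in any treatment. Neither was any other of the 9614 genes (0%), so this says nothing particular about the lists.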

How the data were processed

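RNA-seq of polyA RNA (TruSeq libraries, paired-end, HiSeq2500) was available for 16 BMDM libraries in 6 groups. The authors mapped reads to mm10 with CLC Bio Genomic Workbench, counting for each gene the exon reads that map once. The authors then normalized library sizes in edgeR with its trimmed mean method, and the deposited values are log2 CPM of 9614 genes. The submitters' processing notes also name CASAVA 1.8 and FastQC. A further 18 columns of p-values and FDR values from the authors' own comparisons were deposited and not used.

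The deposited values rise in steps of 1 read, and 100% of values under 3 CPM were whole within 0.2 read, which gave depths of 25030934 to 49730083 reads. A count of 3 reads was 0.065 to 0.136 CPM, which covers counting error only.

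Each comparison was fitted to the log2 values of all 9614 genes with lmFit and eBayes (trend) in limma 3.58.1 (R 4.3.3) and adjusted by the Benjamini-Hochberg method. LPS was compared in the 10 untreated and LPS libraries, Dex in the 12 LPS and LPS + Dex libraries with the mouse as a block, and genotype within each treatment. Calls were made at an adjusted p under 0.1 (genotype 0.05). The mouse numbers in the labels pair libraries, and those of the same mouse deviated together across genes (r = 0.781 to 0.939 for LPS and LPS + Dex, 0.185 to 0.822 for untreated and LPS). Tables and figures were made with Python 3.11.15, pandas 2.3.3 and matplotlib 3.10.9.

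The members and gene lists were chosen with earlier results of these data known. All 8 members were named, together with up to 3 called genes of the other lists per comparison by size of change and the 5 genes most like Myc, Mxd1 and Mxi1. Other genes named were chosen after their values were seen. Alternatives were other blocks, libraries, scalings, a pseudocount of 1, a filter of mean log2 CPM above 1, voom and leaving out each library.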

Additional observations from a re-analysis of the deposited data

Results flagged for a closer look

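In the 4 mice that gave both an untreated and an LPS library, Mlx, the partner of MondoA, had changes above 0 in WT and below 0 in KO. The log2 change from untreated to LPS was 0.48 in WT mouse A and 0.004 in WT mouse B, a mean of 0.24, and in KO the changes were -0.026 for A and -0.019 for B, a mean of -0.022. The KO changes and that of WT mouse B are close to 0, and the mean of the WT rests on mouse A, whose untreated library stood apart. In the limma fit of all 10 untreated and LPS libraries, which adds the LPS libraries of mice C, the change was above 0 in both genotypes (0.24 in WT and 0.049 in KO), and the difference between genotypes was -0.19 log2 units with an adjusted p of 0.823.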

How the results depend on the processing

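The Dex calls depended on the pairing of libraries by mouse and on the libraries fitted. With no replicate block, 0 members were called in WT and 1 in KO. In 1 fit of all 16 libraries, which kept the mouse as a replicate block, 2 were called in KO. There Myc was not called in either genotype (limma adjusted p = 0.387 in WT and 0.224 in KO), nor was Mga in KO. For LPS, the mouse as a replicate block kept Myc (log2 change 2.55 in WT and 2.74 in KO) and Mxd1 (2.01 and 2.41) as the 2 called members, and it changed no other member's call. With all 16 libraries and the block, chosen after seeing the data, 6 members were called with LPS in WT. At an unadjusted p, 1 member passed for the genotype difference in the Dex response and 2 for KO against WT with LPS + Dex. The cause was not tested. Leaving out 1 library gave 2 to 5 calls for LPS in WT, 1 to 2 for LPS in KO, 0 to 2 for the genotype difference in the LPS response and 0 to 1 for KO against WT untreated, the highest counts for LPS in WT, the LPS difference and untreated BMDM arising without the untreated library of WT mouse B. A lone library left in a group is assumed to vary like the other groups. With 2 untreated libraries per genotype, the genotype difference in the LPS response of Myc is bounded only to -1.23 to 1.42 log2 units.

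Changes of direction concerned values that were not called. With each library centred on its median gene, Mlx had -0.0078 and Mga -0.036 for LPS in KO, Mnt 0.01 for the genotype difference in the LPS response, Max 0.00033 for Dex in WT, and Mlx -0.0017 for Dex in KO and 0.009 for KO against WT with LPS. On voom the last pair were -0.00075 and 0.0046. Mlx for LPS in KO was -0.022 with the mouse as a replicate block and with mice A and B only, and -0.018 with all 16 libraries and the block. Mxd4 for KO against WT untreated was 0.066 with the mouse as a random effect. Leaving out 1 library changed the sign of the following log2 values. For LPS in WT the ranges were Mnt -0.39 to 0.11 and Mga -0.081 to 1.41. For LPS in KO the ranges were Max -0.15 to 0.043, Mxd4 -0.28 to 0.0050, Mxi1 -0.23 to 0.36, Mlx -0.022 to 0.085 and Mga -0.035 to 0.093. For the genotype difference in the LPS response the ranges were Myc -0.57 to 0.76, Max -0.044 to 0.20, Mxi1 -0.46 to 0.13, Mlx -0.42 to 0.038, Mnt -0.25 to 0.25 and Mga -1.39 to 0.10. For Dex in WT the ranges were Max -0.024 to 0.0040 and Mlx -0.090 to 0.0080. For Dex in KO the ranges were Mxd4 -0.033 to 0.095, Mxi1 -0.056 to 0.096 and Mlx -0.024 to 0.016. For the genotype difference in the Dex response the ranges were Mxd1 -0.21 to 0.074, Mlx -0.0073 to 0.091 and Mnt -0.13 to 0.021. For KO against WT in untreated BMDM the ranges were Myc -0.83 to 0.50, Max -0.075 to 0.17, Mxd1 -0.038 to 0.21, Mxd4 -0.21 to 0.074, Mlx -0.038 to 0.42, Mnt -0.17 to 0.33 and Mga -0.22 to 1.26. For KO against WT with LPS the ranges were Myc -0.28 to 0.088 and Mlx -0.072 to 0.035. For KO against WT with LPS + Dex the ranges were Max -0.032 to 0.092, Mlx -0.0068 to 0.11, Mnt -0.039 to 0.075 and Mga -0.044 to 0.097.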

Other observations

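Over the 16 libraries, the 5 genes whose log2 CPM was most like that of Myc were Ccl3 (r = 0.99), Icam1 (0.98), Ccl4 (0.98), Nxpe3 (0.98) and Klf6 (0.97). Ccl3 and Ccl4 encode chemokines and Icam1 an adhesion molecule. For Mxd1 they were Ier3 (r = 0.98), Lif (0.96), Prdm1 (0.95), Osm (0.95) and Gadd45b (0.95), of which Lif and Osm encode cytokines of the IL-6 family. Mxd1 ranked 212 among all genes by its r with Myc (0.85). For Mxi1, which did not pass the test with LPS or Dex, they were Cyp4v3 (r = 0.95), Narf (0.94), Idh1 (0.94), Slc38a9 (0.93) and Sort1 (0.93). These are correlations over libraries that share treatments and mice, given as a description.

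Relative to Myc, the other members had r of 0.56 (Mga), 0.53 (Mlx), -0.03 (Mxi1), -0.18 (Max), -0.28 (Mnt) and -0.62 (Mxd4) over the same libraries. The values of Mga and Mlx include the untreated library of WT mouse A, in which both had their lowest level.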
